A study of Daphnia magna with 24 samples.

Results

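Water collected at the position called downstream 2 of Greenhorn Mine, California, was set against the laboratory culture medium COMBO in the water flea Daphnia magna. This group holds 6 of the 24 arrays of the study, chosen by their labels, and consists of 3 exposures with 2 dye-swap arrays each. The other groups are downstream 1, the mine drainage entry and upstream, each again with 3 exposures and 6 arrays. All animals came from a genetically uniform commercial stock cultured at 23.5 °C in COMBO adjusted for water hardness. The exposed animals were adult females aged 14 to 16 days, kept for 24 h in field water in the laboratory, with 10 to 15 of them pooled per exposure. The control animals stayed unexposed in COMBO, and their age is not stated separately. The water of all sites was collected on one day, so the 3 exposures repeat the exposure and not the sampling of the stream. The sites differed in copper according to the design text, which gives no amounts. Field water also differs from COMBO in more than copper, and the 2 cannot be told apart in a comparison with control.

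Daphnia are small crustaceans that filter algae from fresh water, and they are widely used to test water quality. Copper is an essential cofactor of respiratory and antioxidant enzymes, and in excess it is toxic to aquatic animals. Animals commonly answer excess metal through metal-binding proteins such as metallothioneins and through enzymes that limit oxidative damage. Which of the features below belong to such genes is not known here, since the files give array IDs alone and a table of Daphnia magna genes matched 0 of 7680 IDs. IDs are therefore given sparingly, and the response is described by its size, direction and spread.

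Each deposited value is a log ratio of both dye channels of an array. It was taken as log2, although the base is not stated, so that sizes and folds hold only for that base. The second channel held exposed RNA on every array, and the design text compares field exposures with control, so exposed over control is the likely direction. Because the direction is not stated outright, ratios are called positive or negative. The 6 arrays gave a value for 7042 to 7472 of 7680 features. Brightness and background were not analysed here, and the number of exposures limits the precision.

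The 3 exposures to downstream 2 water were unequal in the agreement of their 2 arrays and in the size of their values. Across features, the 2 arrays of exposure 3 correlated with r = 0.772, those of exposure 1 with 0.712 and those of exposure 2 with 0.515. These are correlations across features of arrays that share their RNA, and features are not independent replicates. The share of features with the same sign on both arrays gave another order, with 57.8% in exposure 1, 63.4% in exposure 2 and 62.9% in exposure 3. The SD over all tested features was 0.68 in exposure 1, 0.56 in exposure 2 and 0.40 in exposure 3. Exposure 1 had 892 features beyond 1 on the log2 scale in either direction, exposure 2 had 575 and exposure 3 had 231. Between exposures, r was 0.605 for 1 with 3, 0.481 for 1 with 2 and 0.438 for 2 with 3, so exposure 2 was the least like the others by this measure.

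Of 7388 features tested, 492 were changed in downstream 2 water against control, 6.66% of those tested. They divided into 260 positive (3.52%) and 232 negative (3.14%). The test was limma's moderated test of the site mean against 0, with the spread pooled over all 12 exposures of the study and a Benjamini-Hochberg adjusted p under 0.05. The labels number the exposures as biological replicates, without saying whether each had a culture or a control RNA of its own. The p-values therefore reflect only how far these exposures scattered, and that scatter may be technical. The calls depended on the fit, since 0 features passed in limma with the 3 exposures fitted alone, where 1074 had an unadjusted p under 0.05. Fitted alone, they leave 2 residual degrees of freedom, against 8 in the pooled fit, and the cause of the loss was not tested. In the pooled fit the count was 157 without exposure 1, 262 without exposure 2 and 446 without exposure 3, and each such fit also has fewer values to test with.

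The negative changes were individually larger and the positive ones reached farther. The median negative change was -1.15 (quartiles -1.39 and -0.86), and the median positive one was 0.81 (quartiles 0.57 and 1.22). Beyond 1 on the log2 scale lay 136 of the 232 negative features and 87 of the 260 positive ones. Beyond 2 the order turned, with 12 negative and 24 positive features. At the other end, 71 changed features were no larger than 0.5, of which 50 were positive and 21 negative. The smallest changes that passed were 0.23 and -0.24.

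**Figure D1:**
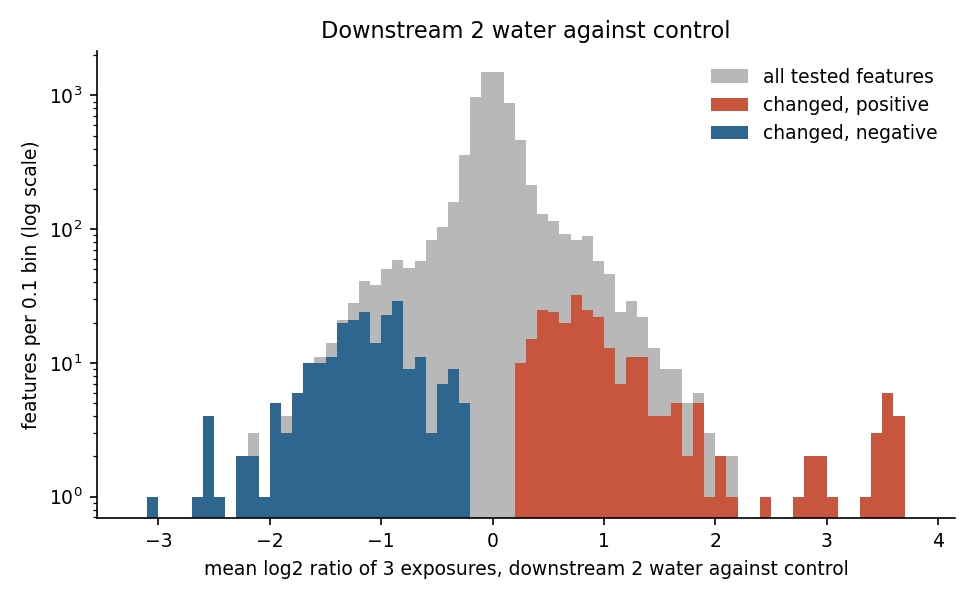
Number of features (log axis) by their mean log2 ratio over the 3 downstream 2 exposures, for all 7388 tested features (grey) and for the 260 positive (red) and 232 negative (blue) ones that passed the test. Positive features beyond 2.5 stand apart on the right, and the negative changed features centre on their median of -1.15.

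Size alone did not decide which features passed. Of 382 features with a mean beyond 1 in either direction, 223 passed and 159 did not. The median SD between the downstream 2 exposures was 0.84 in those 159, 0.32 in the 492 changed features and 0.20 in all tested features. For the median feature, a site mean carried an unadjusted 95% interval of 0.30 in each direction.

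The changed features were steady in sign over arrays. A value on all 6 arrays was present for 452 of them, and 437 of these (96.7%) had one sign on all 6. Over all tested features with 6 values, 1155 of 6247 (18.5%) did. A steady sign favours a low p, so the first share is partly set by the test. With positive and negative features turned to one direction, the median was 0.94 on the arrays with exposed RNA in Cy5 and 0.96 on those with exposed RNA in Cy3. The positive features stood at 0.88 in Cy5 and 0.73 in Cy3, and the negative ones at 1.03 in Cy5 and 1.20 in Cy3. Both orientations had the called sign in 490 of the 491 changed features that had both.

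Each exposure was also read with features chosen on the other 2 alone, which had to share a sign and average more than 1 in size. Exposures 2 and 3 chose 231 features, and all 231 had that sign in exposure 1, with a median of 1.81 there against 1.25 where they were chosen. Exposures 1 and 3 chose 424, of which 386 (91.0%) had that sign in exposure 2, with a median of 0.97 there against 1.27 where they were chosen. Exposures 1 and 2 chose 550, of which 469 (85.3%) had it in exposure 3, with a median of 0.60 there against 1.36 where they were chosen. Among all features with one sign in the choosing exposures, whatever their size, 63.8%, 67.5% and 70.9% had that sign in exposures 1, 2 and 3. If the 3 exposures shared one control RNA, these readings are not independent of each other.

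Over the 492 changed features the median size was 1.18 in exposure 1, 0.91 in exposure 2 and 0.71 in exposure 3. Of 488 with a value in all exposures, exposure 1 had the largest value in 308, exposure 2 in 130 and exposure 3 in 50. This order depended on the scale of the arrays. With arrays brought to a common spread, the medians were 1.00, 0.68 and 1.12 in exposures 1, 2 and 3, so exposure 3 had the largest in place of the smallest. Exposure 1 was above exposure 2 on both scales.

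The strongest response was a compact group of 20 positive features with means between 2.74 and 3.69, which is 6.68-fold to 12.9-fold if the base is 2. The next lower feature stood at 2.44. The bound of 2.5 was set at this gap after the values were seen, so the group is described without a test of its own. All 20 had passed the test against control, with limma adjusted p from 0.00082 to 0.0044. On the 6 arrays their lowest single value was 2.24, so none came near 0 on any array. All 20 carry the letter P, in 11 of the 13 P blocks among the 20 blocks of IDs described further below. That letter is also carried by 4936 of the 7388 tested features and by 217 of the 260 positive changed ones.

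These 20 features moved together within the downstream 2 exposures. Their medians were 4.05 in exposure 1, 2.80 in exposure 2 and 3.44 in exposure 3, and 19 of 20 had exposure 1 largest, then 3, then 2. The 67 positive features between 1 and 2.5 differed in this, with medians of 1.66, 1.35 and 1.08 in exposures 1, 2 and 3, and 14 of the 65 with values in all 3 exposures had the order 1, 3, 2. Scaling turned the first place here too, with medians of 3.42, 2.08 and 5.26, while exposure 2 remained the lowest. Over all 24 arrays of the study, the 190 pairs among the 20 features correlated with a median r of 0.955 and a lowest r of 0.802. Those arrays share the contrast between upstream and the other sites, so the r values describe a shared pattern and carry no p.

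Side by side, the site means of these 20 had a median of 3.48 at downstream 2, 3.24 at downstream 1, 3.70 at the entry and 0.29 upstream. Of the 20, 12 passed the test of downstream 2 minus upstream, against 1.31% of all tested features. The group was chosen for large means at downstream 2, which favours passing this test. In upstream exposure 3 the highest of them reached 2.14, so the upstream values were not uniformly near 0.

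**Figure D2:**
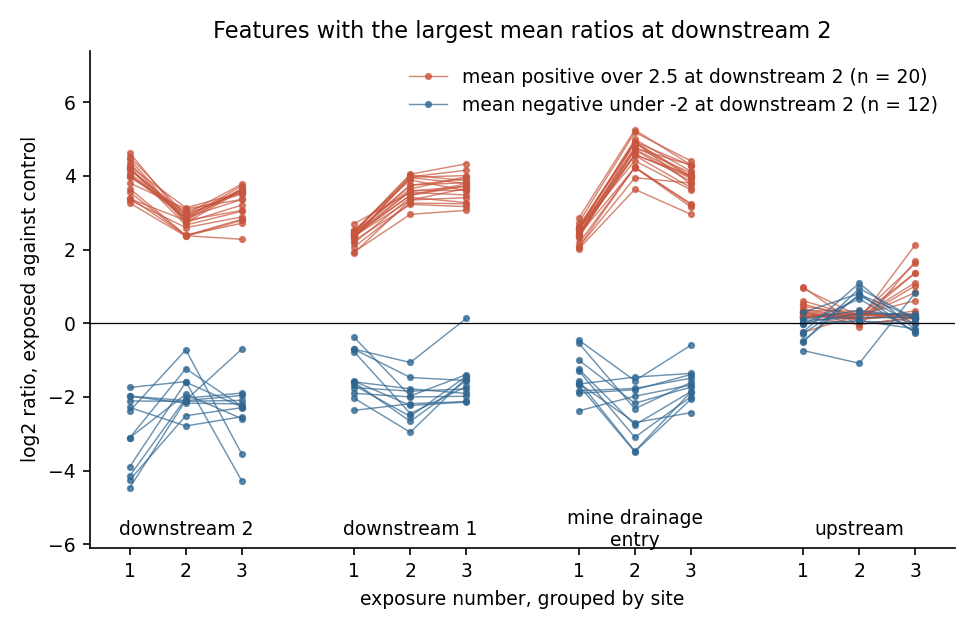
Log2 ratios in each exposure (numbers 1 to 3, grouped by site) of the 20 positive features with a mean over 2.5 at downstream 2 (red) and the 12 changed features with a mean under -2 (blue). Lines join the values of one feature within a site. The red features run close together, with medians of 4.05, 2.80 and 3.44 in the downstream 2 exposures. The blue ones spread widely as a group, although some of them vary little between exposures.

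The 2 features with the largest positive means and values on all 6 arrays belonged to this group. P4CB5 had 4.96 and 4.30 on the arrays of exposure 1, 3.04 and 2.55 on those of exposure 2, and 3.48 and 3.8 on those of exposure 3, with the exposed RNA in Cy5 given first. Its mean was 3.69 ± 0.92 (SD, n = 3; limma adjusted p 0.0044), or 12.9-fold in base 2. P8BE5 had 4.60 and 4.45, then 3.05 and 2.82, then 3.69 and 3.45, and averaged 3.67 ± 0.80 (SD, n = 3; limma adjusted p 0.0011). In both, exposure 1 was highest and exposure 2 lowest, and no array of exposure 2 reached the lower array of exposure 3. Without exposure 1, P4CB5 was at 3.22 and no longer passed (limma adjusted p 0.052).

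P4CB5 and P8BE5 were near each other at downstream 2 and apart upstream. P4CB5 stood at 0.22, 0.09 and 2.14 in the upstream exposures, and P8BE5 at 0.20, 0.22 and 0.13. The single high value of P4CB5 was that of upstream exposure 3. For downstream 2 minus upstream, P4CB5 stood at 2.87 and did not pass (limma adjusted p 0.14), and P8BE5 stood at 3.49 and passed (limma adjusted p 0.027).

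The most negative features were less compact. The 12 changed features under -2 had a median of -2.48 at downstream 2, -1.84 at downstream 1, -1.83 at the entry and 0.14 upstream. Their median SD between downstream 2 exposures was 1.01, against 0.61 in the 20 positive features. Exposure 1 was the largest in 6, exposure 2 in 3 and exposure 3 in 3. The 12 were unlike in their spread. In exposures 1, 2 and 3, A6E16 stood at -1.98, -2.10 and -1.96 and P2AA10 at -1.98, -2.17 and -2.19. P6DD12 stood at -4.47, -2.09 and -0.70.

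P13DA2 had the most negative mean with values on all 6 arrays. It had -3.62 and -4.90 in exposure 1, -2.05 and -2.98 in exposure 2, and -2.16 and -2.43 in exposure 3, with Cy5 first, and averaged -3.02 ± 1.08 (SD, n = 3; limma adjusted p 0.0040). P9AG7 followed with -3.49 and -4.80, then -2.48 and -1.60, then -1.83 and -1.96, and averaged -2.69 ± 1.26 (SD, n = 3; limma adjusted p 0.011). Exposure 1 stood below both other exposures in each of them, without overlap of the arrays. Without it P9AG7 was at -1.97 and no longer passed (limma adjusted p 0.091), and P13DA2 was at -2.40 and passed (limma adjusted p 0.037).

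The IDs fall into 20 blocks of 384, named by a letter and a first number, 7 with the letter A and 13 with P. What the blocks stand for is not stated. Of the tested features, 97 of 2452 with the letter A (3.96%) and 395 of 4936 with P (8.0%) were changed, against 6.66% in all. Among the A blocks, A6 had 39 changed of 380 tested (10.3%), and the other A blocks had between 1.11% and 5.08%. The P blocks ran from 4.49% to 12.3%, with the highest share in P10.

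In block A6 the changes leaned to the negative side, with 31 negative and 8 positive. The 31 had a median of -1.08 at downstream 2, -1.11 at downstream 1, -1.30 at the entry and 0.08 upstream. In the downstream 2 exposures 1, 2 and 3 their medians were -1.31, -0.81 and -1.24. The median of all tested A6 features at downstream 2 was -0.03, so the block as a whole was not displaced by that much.

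Other A blocks were displaced as a whole in exposures 1 and 2. In exposure 1 the median of all tested features was 0.28 in A4, 0.42 in A5 and 0.45 in A7, while the P blocks lay between -0.09 and 0.03. In exposure 2 A4 and A7 lay on the other side, at -0.17 and -0.16, with A5 at 0.08 and the P blocks between -0.06 and 0.16. In exposure 3 no A block median was farther from 0 than -0.07. With each array centred within its ID blocks, a setting chosen after these medians were seen, 530 features were changed, 454 of them among the 492.

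**Figure D3:**
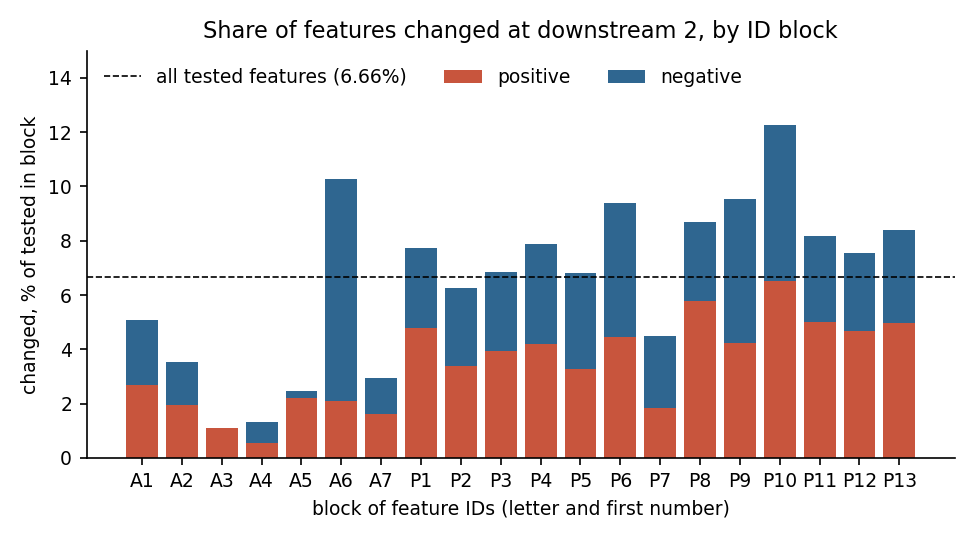
Share of tested features changed at downstream 2 in each of the 20 blocks of feature IDs, divided into positive (red) and negative (blue). The dashed line marks the 6.66% over all tested features. Block A6 reaches 10.3%, mostly negative, and the other A blocks lie below the line.

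The 492 features were then followed at the other sites. They were chosen at downstream 2, which favours large values there, and the comparisons with control may share control RNA, so the values are only set side by side. The 260 positive ones had a median of 0.81 at downstream 2, 0.44 at downstream 1, 0.58 at the entry and 0.12 upstream. The 232 negative ones had -1.15 at downstream 2, -0.78 at downstream 1, -1.15 at the entry and 0.07 upstream. In upstream exposure 2 the features negative at downstream 2 were positive, with a median of 0.39, against -0.03 and -0.01 in upstream exposures 1 and 3.

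**Figure D4:**
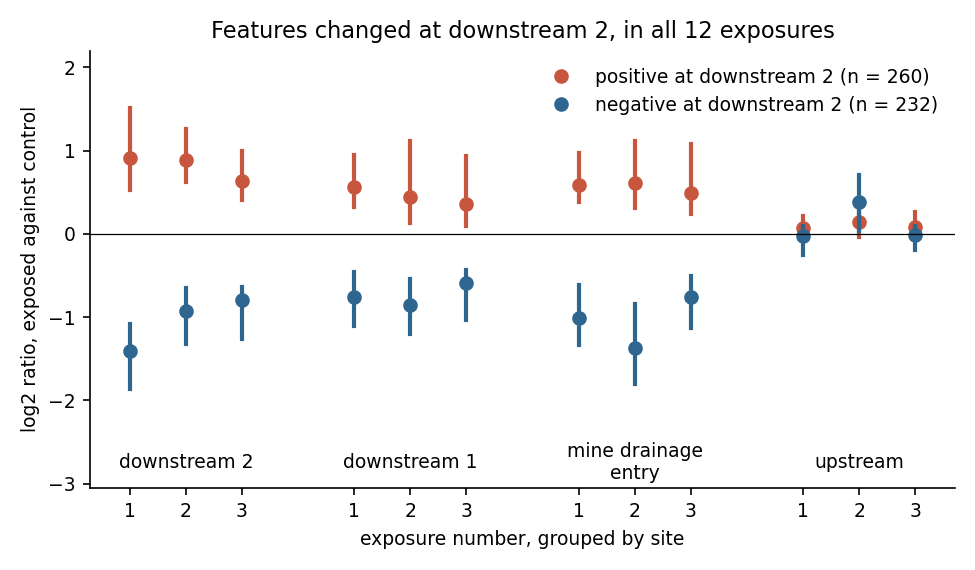
Median (point) and quartiles (bar) of the log2 ratio in each of the 12 exposures, for the 260 features positive (red) and the 232 negative (blue) at downstream 2, where they were chosen. At downstream 2 the negative medians were -1.41, -0.92 and -0.80 in exposures 1, 2 and 3 and the positive ones 0.91, 0.88 and 0.64. Upstream both lie near 0, apart from the negative set in exposure 2.

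Downstream 2 minus upstream asked which changes exceeded those seen with water from above the mine. Here 97 of 7388 features differed in limma (1.31%), 40 positive and 57 negative. A control RNA shared by all exposures would cancel in this difference. The 40 positive ones had a median of 1.59 at downstream 2 and 0.11 upstream, and the 57 negative ones had -1.21 at downstream 2 and 0.03 upstream. The upstream mean was under 0.5 in size in 39 of the 40 and in all 57. Across all tested features, however, the upstream exposures did not agree, with r of 0.118 for 1 with 2, -0.170 for 1 with 3 and -0.289 for 2 with 3. The median SD between exposures was 0.26 upstream and 0.20 at downstream 2. An upstream mean near 0 can thus average unlike values. In all 97 the exposures of the sites did not overlap, which was so in 947 of all 7388 features (12.8%). The calls came from the same exposures, so the absence of overlap in the 97 largely restates them.

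The count fell whichever single exposure was left out, and each such fit also has fewer values to test with. Without downstream 2 exposure 1, 2 or 3 it was 16, 41 and 60, and without upstream exposure 1, 2 or 3 it was 11, 11 and 48. Across features, same-numbered exposures of these sites deviated together (lowest r 0.248), although the labels state no pairing. With both sites alone and paired by number, 0 features passed in limma, 959 having an unadjusted p under 0.05. That paired fit leaves 2 residual degrees of freedom. With the number as a replicate block over all sites, 100 passed.

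The lowest p-values in this comparison belonged to features that varied little. A6E16 had -1.81 and -2.15 on the arrays of exposure 1, -2.46 and -1.74 on those of exposure 2, and -2.0 and -1.92 on those of exposure 3. It averaged -2.01 ± 0.08 at downstream 2 and 0.02 ± 0.03 upstream (SD, n = 3 each), a difference of -2.03 (SE 0.09, limma adjusted p 8.7e-06). P2AA10 averaged -2.11 ± 0.11 at downstream 2 and 0.21 ± 0.12 upstream (SD, n = 3 each), a difference of -2.33 (SE 0.13, limma adjusted p 1.7e-05). Its 6 downstream 2 arrays lay between -2.54 and -1.75.

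On the positive side, P13AE11 averaged 1.42 ± 0.16 at downstream 2 and 0.01 ± 0.12 upstream (SD, n = 3 each), a difference of 1.41 (SE 0.12, limma adjusted p 0.00048). P5BE5 averaged 1.58 ± 0.23 at downstream 2 and 0.03 ± 0.13 upstream (SD, n = 3 each), a difference of 1.55 (SE 0.14, limma adjusted p 0.00084). In all 4 features the scaled arrays and each left-out exposure kept the sign and the call. In the paired fit of both sites alone none of the 4 passed, with limma adjusted p from 0.094 to 0.098.

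**Figure D5:**
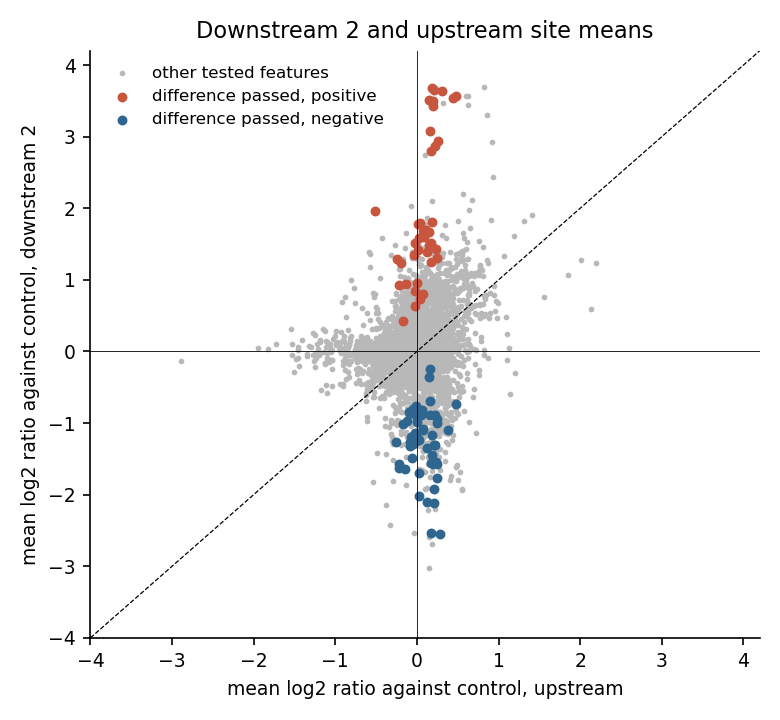
Mean log2 ratio against control at downstream 2 (vertical axis) and upstream (horizontal axis) for each tested feature, with the line of equal values dashed. The 40 positive (red) and 57 negative (blue) features whose difference passed the test lie close to 0 on the upstream axis, with medians of 0.11 and 0.03.

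Against the other sites below the mine, 0 features (0%) passed for downstream 2 minus the entry (lowest limma adjusted p 0.81) and 0 (0%) for downstream 2 minus downstream 1 (lowest limma adjusted p 0.999). At an unadjusted p under 0.05 there were 253 and 262 features, in a test of 7388. Such a difference carried an unadjusted 95% interval of 0.42 in each direction for the median feature and 0.54 for the median of the 492. In the comparison with the entry, the whole interval lay within 1 in either direction for 351 of the 492 (71.3%). Over all tested features the share was 76.0%. In that with downstream 1 it did so for 285 (57.9%), against 76.1% of all tested features. For the others of the 492 the interval reached beyond 1, so that a difference of that size lay within it.

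In these 492, the value at downstream 2 was larger in the called direction than at the entry in 334 and than at downstream 1 in 405. The median excess was 0.12 over the entry and 0.30 over downstream 1. Having been chosen at downstream 2, the features would lean this way without any difference between sites, so the excess is no evidence of one. Of the 492, 168 were called against control at no other site, 108 positive and 60 negative. Turned to one direction, their medians were 0.76 at downstream 2, 0.22 at downstream 1, 0.36 at the entry and 0.05 upstream. The 168 were picked for passing at downstream 2 and failing elsewhere, which favours larger medians at downstream 2. The shares of all features called against control at the other sites are not given here, so 168 cannot be judged as many or few. The test of downstream 2 minus upstream passed in 4 of the 168, against 97 of the 492 and 97 of all 7388 features (1.31%). For the difference from the entry or from downstream 1, 0 of the 168 passed, as 0 of all 7388 did.

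The features of lowest p in these comparisons are given as values. A5I7 stood at 2.04, 1.61 and 0.52 in the downstream 2 exposures and at -0.32, -0.49 and -0.95 in those of the entry, a difference of 1.98 (95% interval 1.22 to 2.74, limma adjusted p 0.81). On the arrays it was 2.04 in exposure 1, with one array missing, then 2.5 and 0.73 in exposure 2 and 1.09 and -0.05 in exposure 3. Its values with exposed RNA in Cy5 were thus far above those in Cy3, and it lies in block A5, displaced by 0.42 in exposure 1. The difference was 2.25 from the Cy5 arrays alone, 1.13 from the Cy3 arrays alone, 1.80 with a dye term over all 24 arrays and 1.75 with arrays centred within ID blocks, and it passed in none of these (limma adjusted p from 0.71 to 1.00). Without downstream 2 exposure 3 the difference was 2.41 and passed (limma adjusted p 0.023).

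A6E16, with -2.01 at downstream 2 and -1.49 ± 0.15 at the entry (SD, n = 3), had the negative difference of lowest p, -0.52 (95% interval -0.73 to -0.31, limma adjusted p 0.81). It was -0.78 from the Cy5 arrays alone and -0.26 from the Cy3 arrays alone. Between the downstream positions, A5I11 averaged 1.31 ± 0.15 at downstream 2 and -0.33 ± 0.22 at downstream 1, a difference of 1.64 (95% interval 0.96 to 2.32, limma adjusted p 0.999; SD, n = 3 each). Its arrays in exposure 1 read 2.25 in Cy5 and 0.57 in Cy3, so the exposures agreed more closely than the arrays within one. P9BF6 averaged -0.31 ± 0.12 at downstream 2 and 0.12 ± 0.05 at downstream 1, a difference of -0.43 (95% interval -0.65 to -0.21, limma adjusted p 0.999; SD, n = 3 each). With Cy5 first, its downstream 2 arrays read -0.71 and 0.05, then -0.85 and 0.01, then -0.17 and -0.21. In exposures 1 and 2 the negative value thus came from the Cy5 array alone.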

How the data were processed

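The deposited values are log ratios, taken as log2, of 2-colour cDNA arrays, 1 column per array. Per the labels' protocols, total RNA of pooled whole animals gave aminoallyl cDNA coupled to Cy3 or Cy5, with dyes exchanged between the 2 arrays of an exposure. The sources used here name no scanner, background correction, filter, normalization or log base. Array medians of -0.0359 to 0.0257 show values at or near centred.

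Array medians were subtracted and the 2 arrays of an exposure averaged to 1 replicate. A feature was tested if every site had it in 2 or more exposures (7388, leaving out 292, of which 160 had 2 or more at downstream 2). All 12 exposures entered one limma fit (limma 3.58.1, R 4.3.3; lmFit, eBayes; 8 residual and 1.79 prior degrees of freedom). The site mean was tested against 0 and against other sites by contrasts, two-sided, with Benjamini-Hochberg adjustment, and an adjusted p under 0.05 counted as changed. The test against 0 holds no control spread if a single control RNA was used throughout. Steps were tested on simulated data.

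Across features, same-numbered exposures of downstream 2 and upstream deviated together in every pair (lowest r 0.248). With downstream 1 the r were -0.191, -0.31 and 0.497 for exposures 1, 2 and 3, and with the entry they were -0.455, -0.387 and 0.446. Exposure 3 thus deviated together with its number at every site. Features are not independent replicates and the labels state no pairing, so whether exposures were paired is not known. Named features have the 2 largest positive and negative means with values on all 6 arrays and one sign (against control), the 2 lowest p-values in each direction (minus upstream) or 1 (other sites), without overlap of exposures. Members and lists were chosen with earlier results of these data known. Plots used Python 3.11.15 and matplotlib 3.10.9.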

Additional observations from a re-analysis of the deposited data

Results flagged for a closer look

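In the fit of all 12 exposures, the test of downstream 2 minus upstream passed in 97 features (limma adjusted p under 0.05). With both sites alone and paired by exposure number it passed in 0 (959 at an unadjusted p under 0.05), and the named features had limma adjusted p from 0.094 to 0.098 there. The named features stood at 1.41 (P13AE11), 1.55 (P5BE5), -2.03 (A6E16) and -2.33 (P2AA10) on the log2 scale, downstream 2 minus upstream. Each was close to 0 upstream, with means of 0.01, 0.03, 0.02 and 0.21. Groups of 3 exposures are too small for a search for single outlying samples.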

How the results depend on the processing

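The count of 492 features changed against control became 741 when arrays were weighted, 836 from the arrays that carried exposed RNA in Cy5, 769 with all 24 arrays, the exposure as a random block and a dye term, and 0 with downstream 2 fitted alone. It ran from 157 to 446 with an exposure left out, and the other alternatives gave 429 to 679. The 97 for downstream 2 minus upstream became 55 after scaling, 32 when arrays were weighted, 157 from the Cy5 arrays, 39 from the Cy3 arrays, 411 with all 24 arrays, 25 with both sites alone and 0 with both sites alone and paired by number as a replicate block. It ran from 11 to 60 with an exposure left out. For downstream 2 minus the entry the count was 0 to 1 with an exposure left out (1 without downstream 2 exposure 3) and 0 otherwise, and for downstream 2 minus downstream 1 it was 0 throughout. A replicate block over all sites gave 537 against control and 100 minus upstream. The causes were not tested.

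Over 215 repeats of the named features 0 changed sign. Of 139 repeats of features that had passed, 129 kept the call and 10 lost it. Of 76 repeats of features that had not passed, 75 again did not and 1 did (A5I7 without downstream 2 exposure 3). P8BE5 and P13DA2 lost it where downstream 2 was fitted alone (limma adjusted p 0.069 and 0.12), P4CB5 and P9AG7 there (0.079 and 0.15) and without exposure 1. Both minus-upstream positive and both negative features lost it in the paired fit of both sites alone. Brightness was not analysed here, so what signal over background limits is unknown.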
